A study of Zea mays with 16 samples.

Results

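Phytochromes, cryptochromes and phototropins are the main families of plant photoreceptors. Phytochromes sense red and far-red light through a bilin chromophore, switch between an inactive and an active form, and act on growth, flowering and the clock through the degradation of transcription factors. Cryptochromes bind a flavin, sense blue light and act in the nucleus on photomorphogenesis and on the clock. Phototropins are blue-light-activated kinases of the plasma membrane, and in Arabidopsis they start the opening of stomata in guard cells, with cryptochromes and phytochromes contributing to the response.

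The genes described here are those of the deposited maize table whose description begins with the word Phytochrome, Cryptochrome or Phototropin and that held at least 10 normalised counts in at least 4 of the 16 libraries. There were 6 such genes among 38179 listed, 5 described as Phytochrome and 1 as Cryptochrome, and all 6 rows with these words passed the minimum. For Phototropin 0 rows were found, so nothing is said here of the phototropin genes. The description gives 1 word only and the table does not say which type of phytochrome or cryptochrome a gene encodes, so genes are called by their identifiers. Because phytochrome genes resemble each other and the libraries come from the line B104 while the genome build is that of B73, reads may have been shared or lost between copies. Transcript lengths of this build were not used here. Counts also depend on length, so where counts of different genes stand beside each other they give read numbers and no order of expression. The table of RefSeq genes held 0 of these identifiers, and no sequence is shown.

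The libraries come from guard cells, the paired cells around the pore of a stoma, and from subsidiary cells, the neighbours that lie against them in grass leaves. Both were cut by laser from epidermal strips of the third leaf of 2-week-old seedlings of the maize inbred line B104, grown with 16 h of light at 25 °C and 8 h of darkness at 22 °C. Day samples were taken 2 h into the light period and night samples 2 h into the dark period. Each cell type thus has a day and a night group, and each of these 4 groups has 4 libraries from independent collections. Each library pooled 2 tubes of about 1500 cells, so it averages over cells and carries no information on single plants. Effects of light, of temperature and of the hour cannot be told apart in this cycle, and fewer cells of a type cannot be told apart from less RNA per cell. The descriptions in the table gave no set of guard or subsidiary cell markers with which to check the labelled cell types.

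Recovered reads numbered 16.6 to 28.9 M in a library, with a median of 22.2 M. Replicate 1 of subsidiary cells by day and replicate 4 of guard cells by night stood apart, with mean Spearman correlations to the other 15 libraries of 0.676 and 0.648, against 0.713 to 0.764 in the other 14. For a log2 fold change between 2 of the groups the standard error had a median of 0.73 over all genes tested and ran from 0.41 to 1.22 in the 6 photoreceptor genes. It rests on 1 spread per gene shared by all 4 groups, so libraries outside a comparison also enter it. The lowest value of a photoreceptor gene rested on 82 reads, which after amplification are not independent molecules.

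Of the 6 genes, 1 differed between day and night and 0 passed between the cell types. That gene was the phytochrome gene Zm00001d034038. In subsidiary cells it held 153, 205, 317 and 146 normalised counts by day, against 1293, 673, 698 and 531 by night. Every night library was thus above every day library of this cell type. In guard cells it held 293, 377, 172 and 527 by day, against 736, 481, 260 and 669 by night, and these groups overlapped.

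**Figure D1:**
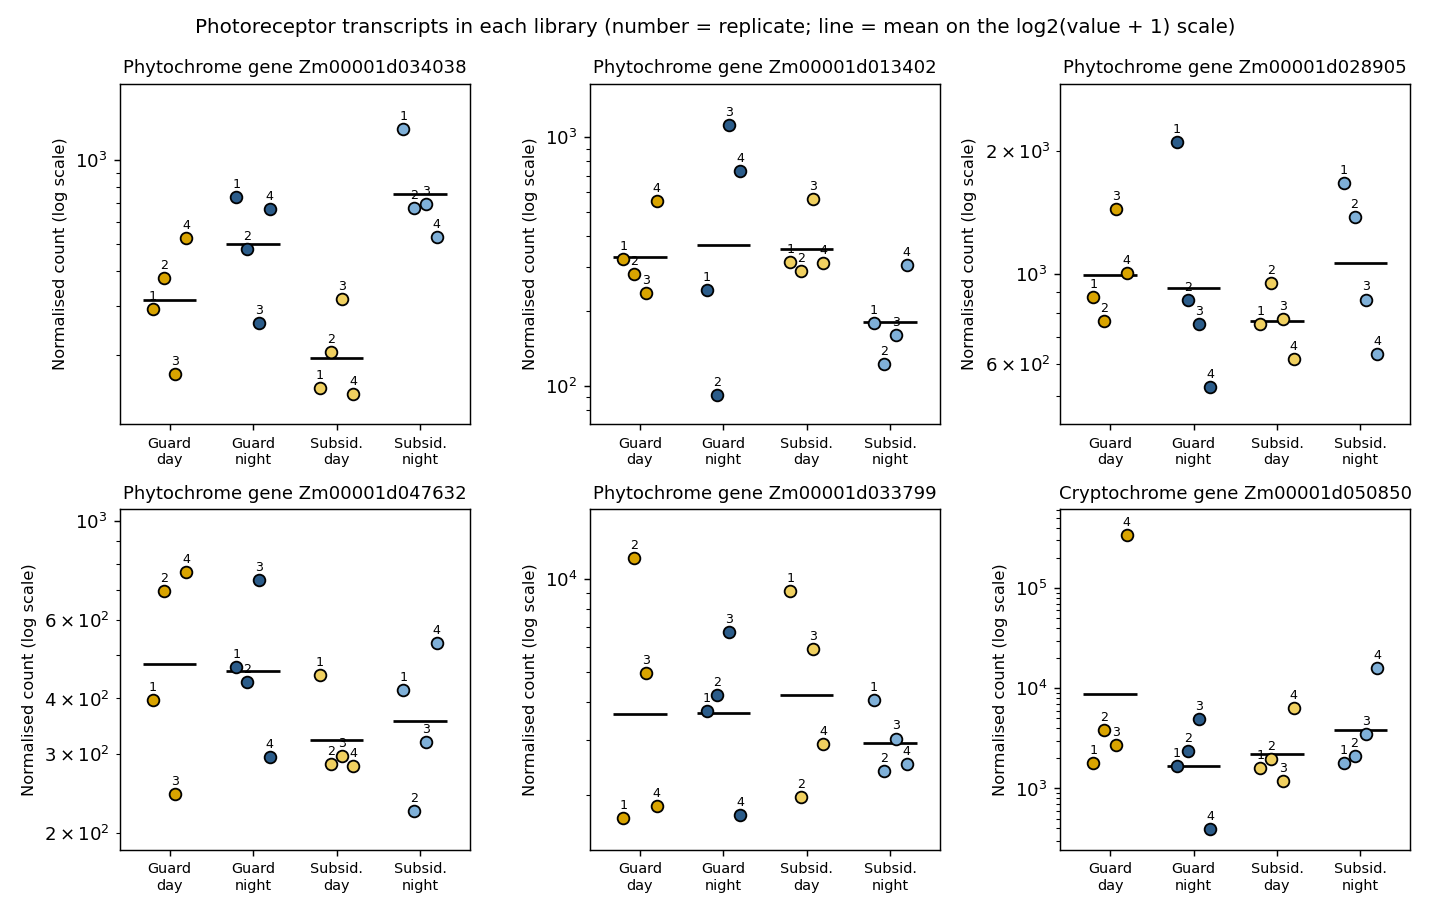
Normalised counts (log scale) of the 6 photoreceptor genes in each of the 16 libraries, by cell type and time; points are libraries with their replicate number, and lines are means on the log2(value + 1) scale. In subsidiary cells the 4 day values of Zm00001d034038 lie between 146 and 317, all below the night values of 531 to 1293, while the cryptochrome gene Zm00001d050850 has 1 guard cell day library at 335787.

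The group means of Zm00001d034038 were 205 ± 79.1 normalised counts by day and 799 ± 338 by night in subsidiary cells (SD, n = 4 each). The night mean was 3.89 times the day mean. On the log2(value + 1) scale the day minus night difference was -1.94 ± 0.45 (SE), with a 95% interval of -2.88 to -1.01, and limma-trend gave an adjusted p of 0.037. Among all 37759 genes tested, 0.548% were called as lower by day in subsidiary cells (1.22% in either direction), and 4.59% had 4 day libraries all below the 4 night libraries (8.84% did not overlap in either direction). In the same comparison 0 of the other 5 photoreceptor genes were called, by limma, edgeR or DESeq2, and 0 of them had an unadjusted limma p under 0.05, which 11.2% of all genes had.

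In guard cells the difference of Zm00001d034038 had the same sign and did not pass. Means were 342 ± 149 by day and 537 ± 214 by night (SD, n = 4 each), a log2 difference of -0.65 ± 0.45 (SE, limma adjusted p = 0.678). Its 95% interval of -1.59 to 0.28 includes 0 and overlaps the interval in subsidiary cells. The difference was -0.36 without guard day replicate 3 and -0.97 without guard night replicate 3. Averaged over both cell types the day minus night difference was -1.30 ± 0.32 (SE, limma adjusted p = 0.0302), against 0.916% of all genes called as lower by day, 2.62% in either direction and 13.8% with an unadjusted p under 0.05. All 8 night libraries exceeded the median of the 8 day libraries, 249, and none of the day libraries exceeded the night median of 671. The 2 times still overlapped, at 146 to 527 by day and 260 to 1293 by night. The share of all genes with such a split was not counted. The difference between the cell types in the day-night change was 1.29 ± 0.63 (SE), which was not called (limma adjusted p = 0.755), so a change particular to subsidiary cells was not shown.

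The call of Zm00001d034038 in subsidiary cells was close to its threshold. It ended without any 1 of subsidiary day replicates 1, 2 or 4 or of the 4 subsidiary night libraries (limma adjusted p 0.0515 to 0.14, log2 difference -2.11 to -1.69), and without the pair of libraries that stood apart (adjusted p = 0.0677, log2 difference -1.83). With edgeR on the recovered reads the adjusted p was 0.0518, and with DESeq2 it was 0.00208. In the authors' deposited table the same gene had a log2 fold change of 1.74 for night over day in subsidiary cells with an adjusted p of 0.00208, and of 0.36 in guard cells with an adjusted p of 0.601. The submitters' processing notes also name DESeq2, on the same libraries, so this is not a separate test. The averaged call ended without the pair of libraries that stood apart (limma adjusted p = 0.0706) and without any 1 of 10 libraries (limma adjusted p 0.0503 to 0.0781), namely guard day replicates 1 and 3, guard night replicates 1 and 2, subsidiary day replicates 1, 2 and 4 and subsidiary night replicates 1 to 3.

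**Figure D2:**
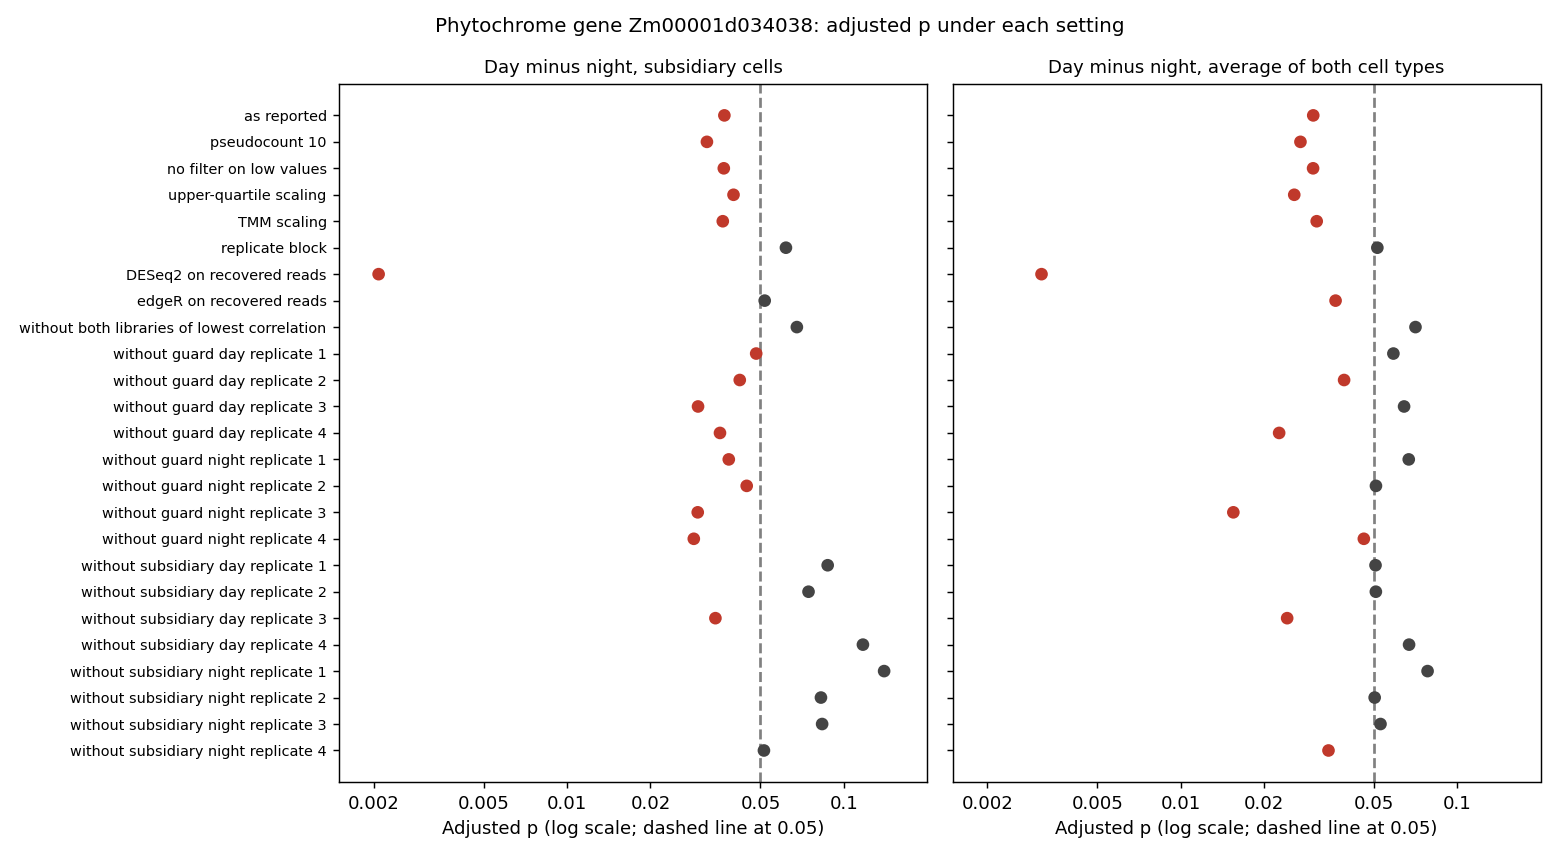
Adjusted p (log scale) of the day minus night difference of the phytochrome gene Zm00001d034038 in subsidiary cells (left) and averaged over both cell types (right), under each processing setting. Red points lie under the dashed threshold of 0.05; as reported the values are 0.037 and 0.0302, and points beyond the line are settings that end the call.

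By its group means the level of Zm00001d034038 ran from subsidiary cells by night through guard cells by night and guard cells by day to subsidiary cells by day. Neighbours in this order were not separated by the limma test. Guard minus subsidiary cells was 0.69 ± 0.45 by day (SE, adjusted p = 0.583) and -0.60 ± 0.45 by night (adjusted p = 0.785). The day value was 0.45 without guard day replicate 4 and 0.99 without guard day replicate 3. The night value was -0.28 without guard night replicate 3, -0.34 without subsidiary night replicate 1 and -0.78 without guard night replicate 1.

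Genes whose first words are taken here as names of other leaf cells were followed in the same subsidiary cell libraries. Genes described as Chlorophyll or Photosystem, 55 in all, took 0.209 ± 0.103% of reads by day (0.0829 to 0.321%) and 0.0906 ± 0.00929% by night (0.0803 to 0.1%; SD, n = 4 each). Of them 6 were called as higher by day, against 0.673% of all genes, and 0 as lower. In guard cells the same names took 0.47 ± 0.142% by day and 0.0978 ± 0.0544% by night (SD, n = 4 each). There 13 were called as higher by day, against 0.747% of all genes, and 0 as lower. The 6 mesophyll names (Carbonic, Phosphoenolpyruvate) took 0.0189 ± 0.00975% by day (0.00566 to 0.0269%) and 0.017 ± 0.00236% by night (0.0135 to 0.0186%). In guard cells they took 0.0337 ± 0.0096% by day and 0.0153 ± 0.00581% by night (SD, n = 4 each). The 5 bundle sheath names (Ribulose) ranged from 0.00563 to 0.0475% by day and from 0.00905 to 0.0188% by night in subsidiary cells, and took 0.0672 ± 0.0432% by day and 0.0316 ± 0.0249% by night in guard cells. The 3 vascular names (Phloem, Xylem) ranged from 0.000605 to 0.00221% by day and from 0.000499 to 0.00161% by night in subsidiary cells, and from 0.000837 to 0.00261% by day and from 0.000928 to 0.00889% by night in guard cells. Averaged over both cell types 1.7% of all genes were called in limma as higher by day. So were 20 of the 55 Chlorophyll and Photosystem names, 1 of the 6 mesophyll names and 0 of the bundle sheath and vascular names. As lower by day 0 of these names were called. Of these genes 0 were at 0 in every library, and their part in the day-night difference of Zm00001d034038 was not tested. First words do not tell which protein such a gene encodes. Guard and subsidiary cells may express these genes themselves, so their reads cannot be assigned to other cells.

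The phytochrome gene Zm00001d013402 leaned the other way in subsidiary cells without passing. It held 314, 288, 563 and 312 normalised counts by day, against 179, 122, 160 and 305 by night. The night replicate at 305 overlapped the day libraries, and the other 3 night libraries lay below them. Means were 369 ± 129 by day and 192 ± 79.2 by night (SD, n = 4 each), a log2 difference of 0.97 ± 0.60 (SE, limma adjusted p = 0.612). The SE also includes the spread of the guard cell libraries. Without guard night replicate 2 the difference was the same and the limma adjusted p was 0.478.

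In guard cells Zm00001d013402 held 325, 281, 236 and 554 by day, against 243, 91.3, 1116 and 728 by night. The night libraries were spread over 12.2-fold and enclosed all day values. This gene also had the smallest p of the 6 between the cell types by night, at 545 ± 468 on average in guard cells and 192 ± 79.2 in subsidiary cells (SD, n = 4 each). The guard minus subsidiary log2 difference was 1.02 ± 0.60 (SE, limma adjusted p = 0.698, 95% interval -0.25 to 2.28). It was 0.48 when guard night replicate 3 was left out and 1.68 when replicate 2 of that group was. The authors' deposited table gave -0.84 for subsidiary over guard cells by night with an adjusted p of 0.226. From high to low its levels were ordered as guard night, subsidiary day (369 ± 129), guard day (349 ± 142) and subsidiary night, and the differences tested within a cell type or a time did not pass.

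The phytochrome gene Zm00001d033799 had the highest counts of the phytochrome rows, which also depends on transcript length. In guard cells it held 1680, 11722, 4961 and 1831 normalised counts by day, against 3729, 4198, 6738 and 1722 by night. In subsidiary cells it held 9111, 1966, 5907 and 2924 by day, against 4066, 2389, 3040 and 2509 by night. The day libraries were spread over 6.98-fold in guard cells and 4.63-fold in subsidiary cells, while the subsidiary night libraries lay within 1.70-fold of each other.

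Group means of Zm00001d033799 were 5048 ± 4699 in guard cells and 4977 ± 3227 in subsidiary cells by day, and 4097 ± 2063 in guard cells and 3001 ± 764 in subsidiary cells by night (SD, n = 4 each). Its smallest p fell on day minus night in subsidiary cells, with a log2 difference of 0.52 ± 0.58 (SE, limma adjusted p = 0.828, 95% interval -0.71 to 1.74). It was 0.14 without subsidiary day replicate 1, a library that stood apart, and 0.88 without subsidiary day replicate 2.

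The phytochrome gene Zm00001d028905 ranged from 766 to 1445 normalised counts by day (mean 1024 ± 297) and from 527 to 2106 by night (1061 ± 710) in guard cells. In subsidiary cells it ranged from 617 to 948 by day (773 ± 136) and from 637 to 1670 by night (1137 ± 471; SD, n = 4 each). The groups overlapped in every pairing. Day minus night in subsidiary cells was -0.47 ± 0.41 (SE, limma adjusted p = 0.75), with a 95% interval of -1.33 to 0.38. It was -0.25 without subsidiary night replicate 1 and -0.72 without subsidiary night replicate 4.

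The phytochrome gene Zm00001d047632 had the smallest p between the cell types averaged over both times. In guard cells it held 397, 696, 245 and 767 normalised counts by day and 470, 436, 739 and 296 by night. In subsidiary cells it held 451, 285, 297 and 282 by day and 418, 224, 319 and 533 by night. The guard minus subsidiary difference was 0.47 ± 0.30 (SE, limma adjusted p = 0.551, 95% interval -0.16 to 1.10), and the cell types overlapped at both times.

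The summed counts of the 5 phytochrome genes were 7289 ± 4603 in guard cells and 6653 ± 3311 in subsidiary cells by day, and 6725 ± 2365 in guard cells and 5502 ± 1435 in subsidiary cells by night (SD, n = 4 each). The ranges overlapped in every pairing, from 3573 to 13841 in guard cells and 3693 to 10781 in subsidiary cells by day, and 3942 to 9605 in guard cells by night and 4515 to 7626 in subsidiary cells by night. In the group means Zm00001d033799 gave most of the summed counts.

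The cryptochrome gene Zm00001d050850 varied more between libraries than any of the phytochrome genes. In guard cells it held 1802, 3798, 2687 and 335787 normalised counts by day, against 1690, 2382, 4907 and 394 by night. In subsidiary cells it held 1594, 1975, 1196 and 6424 by day, against 1793, 2101, 3529 and 15780 by night. A single library, guard day replicate 4, stood 21.3-fold above the next highest of the 16.

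In guard day replicate 4 the gene took 1.63% of all recovered reads (384226 reads) and had the third highest count of that library (rank 3). In the other 15 libraries it took 0.00235 to 0.0799% of reads, with a median of 2101 normalised counts. Across all genes tested 103 of 37759 (0.273%) had a highest library at least as far above the next. Guard day replicate 4 was the highest library for 26 of these, guard day replicate 2 for 36 and guard night replicate 4 for 25. The ratio of the highest to the next library was 1.04 to 1.76 in the 5 phytochrome genes.

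**Figure D3:**
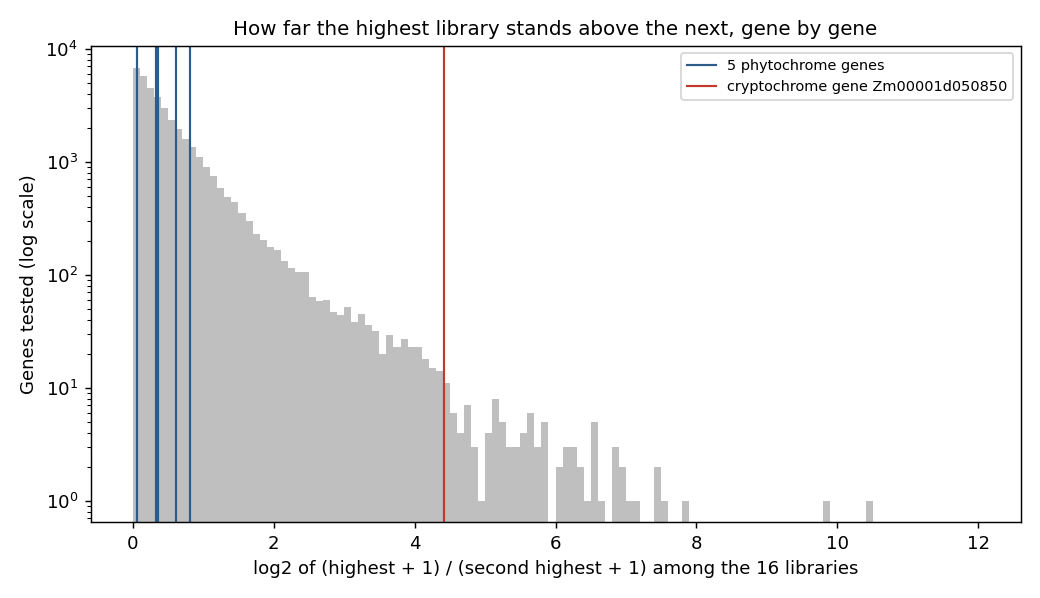
Histogram over the 37759 genes tested of the log2 ratio of the highest to the second highest of 16 libraries, with a pseudocount of 1 (number of genes on a log scale). The cryptochrome gene Zm00001d050850 (red, 21.3-fold) lies in the tail that holds 103 genes, and the 5 phytochrome genes (blue, 1.04- to 1.76-fold) lie in the bulk.

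With all libraries the guard cell day mean of Zm00001d050850 was 86018 ± 166515 (SD, n = 4), and without replicate 4 it was 2762 ± 1000 (SD, n = 3). The other group means were 2797 ± 2439 in subsidiary cells by day, 2343 ± 1898 in guard cells by night and 5801 ± 6696 in subsidiary cells by night (SD, n = 4 each). Guard minus subsidiary cells by day gave a log2 difference of 2.00 ± 1.22 (SE, limma adjusted p = 0.555), which was 0.25 without guard day replicate 4 and 4.99 with edgeR (adjusted p = 0.139). The authors' deposited table gives -4.06 for subsidiary over guard cells by day. Day minus night in guard cells gave 2.41 ± 1.22 (SE, limma adjusted p = 0.533), which was 0.66 without that library and 5.22 with edgeR (adjusted p = 0.158). The authors' deposited table gives -0.55 for night over day in guard cells. The deposited fold changes may be another measure, so their sizes are not set against those of limma or edgeR. With and without guard day replicate 4 the group values overlapped in both comparisons.

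By night guard minus subsidiary cells gave -1.19 ± 1.22 for Zm00001d050850 (SE, limma adjusted p = 0.856), and day minus night in subsidiary cells gave -0.78 ± 1.22 (limma adjusted p = 0.891). Both SEs use 1 spread shared by all 4 groups, so guard day replicate 4 enters them although it is in neither comparison. Without that library both differences stayed the same, and the limma adjusted p was 0.704 and 0.776. The night value was -0.49 without guard night replicate 4, also when both libraries that stood apart were left out, and -0.50 without subsidiary night replicate 4. The subsidiary cell value was -0.09 without subsidiary night replicate 4, -0.48 without subsidiary day replicate 3 and -1.29 without subsidiary day replicate 4. DESeq2 returned no adjusted p for this gene, and the authors' deposited table lists none for it in any of its 4 comparisons.

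**Figure D4:**
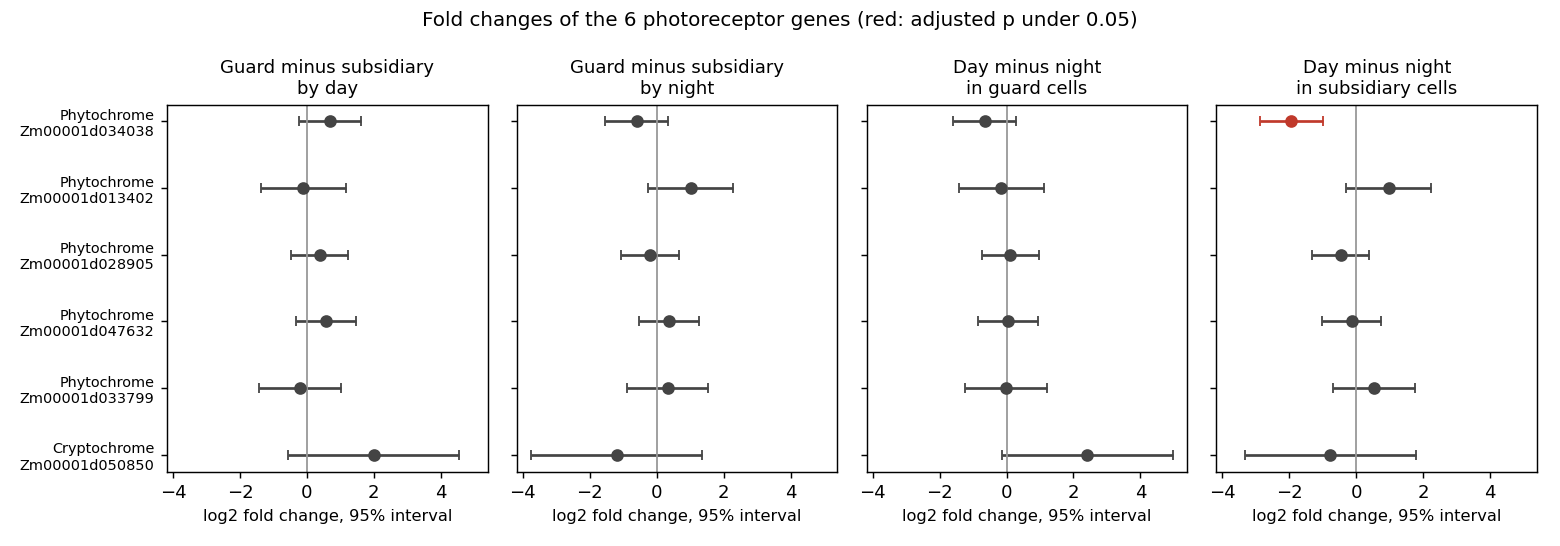
Log2 fold changes (points) with 95% intervals (bars) from limma-trend for the 6 photoreceptor genes in 4 comparisons; red marks an adjusted p under 0.05. The day minus night difference of Zm00001d034038 in subsidiary cells, -1.94, is the called one, and the intervals of the cryptochrome gene Zm00001d050850 are the widest, as from -0.15 to 4.96 for day minus night in guard cells.

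Guard against subsidiary cells gave 0 calls by day, by night and averaged over both times, in limma, in edgeR and in DESeq2, with 0 genes at an unadjusted limma p under 0.05. The shares of all genes called in limma were 1.34% by day, 0.0291% by night and 2.4% averaged, and the shares with an unadjusted p under 0.05 were 12.4%, 8.57% and 13.4%. Day against night in guard cells likewise gave 0 of 6 in each tool and 0 at an unadjusted limma p under 0.05, against 0.866% and 10.1% of all genes. The difference in the day-night change gave 0 of 6 in each tool and 0 at an unadjusted limma p under 0.05, against 0 called and 6.71% with an unadjusted p under 0.05 among all genes. DESeq2 gave a p for 5 of the 6 genes. With so few members a count of 0 lies near these shares and is not a result about the photoreceptor genes. The median log2 fold change of the 6 genes was 0.47 for guard minus subsidiary cells by day (0 over all genes), 0.06 by night (-0.0031 over all genes), 0.02 for day minus night in guard cells (-0.01 over all genes) and -0.31 in subsidiary cells (-0.03 over all genes).

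Other genes with names related to light were found only as far as first words of descriptions allow. Of the 3 genes described as Ultraviolet-B-repressible 1 was called. The word names repression by UV-B light and not a UV-B receptor, and it does not place these genes in light signalling. By day against night 1 of 3 was higher in guard cells, where 0.747% of all genes were called as higher, and 1 of 3 in subsidiary cells, where 0.673% were, with 0 of 3 lower in each. In both it was Zm00001d022464, at 3694 ± 2035 normalised counts by day and 593 ± 393 by night in guard cells, and at 1788 ± 1062 by day and 270 ± 191 by night in subsidiary cells (SD, n = 4 each). The averaged day minus night difference was 2.74 ± 0.42 (SE, limma adjusted p = 0.000719), against 1.7% of all genes called as higher, and the averaged call was kept in all 24 alternatives. The separate calls had a limma adjusted p of 0.029 (guard cells) and 0.0273 (subsidiary cells). With edgeR these were 0.0761 and 0.0544, and without the pair of libraries that stood apart the guard cell value was 0.0628. Each separate call also ended without any 1 of 5 libraries of the cell type concerned (0.0524 to 0.116 in guard cells, namely without day replicates 1 or 3 or night replicates 1, 3 or 4; 0.0802 to 0.0995 in subsidiary cells, namely without day replicates 1 or 3 or night replicates 2 to 4).

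Apart from the Ultraviolet-B-repressible genes, 0 of the genes looked up for light signalling were called in limma in any of the 7 comparisons. The COP9 complex takes part in the degradation of light signalling proteins, and 14-3-3 proteins bind phosphorylated phototropins and proton pumps in Arabidopsis. Between guard and subsidiary cells by day, 12.4% of all genes had an unadjusted limma p under 0.05. Of 3 COP9 genes 2 had one, both lower in guard cells (log2 difference -1.53 and -1.15). Of 6 genes described as 14-3-3-like (5) or BTB/POZ (1), 3 had one, in opposite directions. Zm00001d050375 was lower in guard cells (-1.58), while Zm00001d032231 (2.32) and Zm00001d052837 (1.54) were higher. By night (8.57% of all genes) 1 of 3 and 1 of 6 had one, and averaged over both times (13.4%) 2 of 3 and 2 of 6. The averaged 2 of 6 again went in opposite directions (Zm00001d050375 at -1.49, Zm00001d052837 at 1.23). In these comparisons 0 of 2 Circadian genes and 0 of 1 FAR1-domain gene, of a family that in Arabidopsis acts in phytochrome A signalling, had one. Between day and night the FAR1-domain gene had one in guard cells (10.1% of all genes), 1 of 2 Circadian genes had one in subsidiary cells (11.2%), and averaged over both cell types (13.8%) these were 1 of 1 and 1 of 2, with 1 of the 6 14-3-3-like or BTB/POZ genes. For the difference in the day-night change (6.71%) 0 of these genes had one. With so few genes under each name, these counts are not a result about light signalling. For chromophore synthesis 0 genes were found under the words used.

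The genes whose log2 levels over the 16 libraries were most like those of the phytochrome row with the highest counts, Zm00001d033799, were the OFP gene Zm00001d017606 (Pearson r = 0.83), the Carboxypeptidase gene Zm00001d011425 (0.82) and the Terpene gene Zm00001d024481 (0.82), among tested genes with a description word. For the cryptochrome gene Zm00001d050850 they were the Orphans gene Zm00001d017643 (0.89), the Putative gene Zm00001d008347 (0.87) and the Beclin gene Zm00001d042303 (0.85). These 3 also had their highest value in guard day replicate 4, and without that library their r was 0.56, 0.50 and 0.50. These are descriptions over 16 libraries that share depth and preparation, picked as the highest among 7467 genes, with no test.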

How the data were processed

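The deposited table gives normalised counts (signal) for 16 libraries, normalised by the authors, per the file headers. In each library 100% of them were multiples of a smallest step (tolerance 0.01), which gave back the reads, with size factors of 0.730 to 1.46. DESeq2 1.40.2 and the B73 RefGen v4 build are named in the submitters' processing notes; aligner and counter: not given in the sources used here. Also deposited are the authors' log2 fold changes (a score) and adjusted p-values. For Zm00001d013402 by night the deposited value was -0.84 for subsidiary over guard cells. DESeq2 on the recovered reads gave 1.51 for guard minus subsidiary cells. Sizes of deposited fold changes are therefore not compared with those found here. In 62 lines the later columns were found to be shifted. Per the labels' protocols, SMART-Seq v4 amplified about 10 pg of RNA, and Nextera XT libraries were made from 150 ng of the cDNA. Without strand or molecular identifiers, overlapping genes cannot be told apart and reads are not independent molecules.

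The main test was limma-trend (limma 3.58.1, R 4.3.3) on log2(value + 1), fitting 4 group means to 16 libraries, which leaves 12 degrees of freedom. P-values were adjusted after Benjamini and Hochberg over the 37759 genes that reached 10 in 4 or more libraries (420 left out), and calls were made at an adjusted p under 0.05. Fold changes of low genes are understated on this scale. Because the values are normalised and not raw counts, limma was used as the main test and edgeR as an alternative. Alternatives were a pseudocount of 10, no minimum, upper-quartile and TMM scaling, a replicate block, edgeR 4.0.16 and DESeq2 1.42.0 on recovered reads, and leaving out libraries. The fit was tested on simulated data. Replicates are separate collections per the labels. Subsidiary night samples were grouped by treatment label and library name, since their titles read more like day.

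All 6 genes are named. Every library's value is given for genes called, for the highest row of each description word and for the smallest p of a comparison. The members and lists were chosen with earlier results of these data known.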

Additional observations from a re-analysis of the deposited data

Results flagged for a closer look

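In groups of 4 libraries, 24 combinations of gene and group were looked at on untransformed normalised counts. The search was for 1 library whose gap to the nearest other exceeds the critical share of the group's range in Dixon's test. Chance alone would flag about 1 in 20, or 1.2, if the values were normally distributed. That was not tested, so the flags are not read as an excess over 1.2. There were 5 flags, each for a highest library. For the cryptochrome gene Zm00001d050850 the highest library held 335787 normalised counts in guard cells by day (gap 0.994 of the range, replicate 4), 6424 in subsidiary cells by day (0.851, replicate 4) and 15780 in subsidiary cells by night (0.876, replicate 4). In guard cells by night replicate 4 was the lowest, at 394. For the phytochrome gene Zm00001d047632 subsidiary day replicate 1, a library that stood apart over all genes, was the highest at 451 (0.908). For the phytochrome gene Zm00001d013402 subsidiary day replicate 3 was the highest at 563 (0.907). Whether equal replicate numbers mark a shared collection is not stated in the labels.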

How the results depend on the processing

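The count of photoreceptor genes called was 0 under every alternative for guard against subsidiary cells (by day, by night, averaged), for day against night in guard cells and for the difference in the day-night change. For day against night in subsidiary cells the count of 1 became 0 with a replicate block, with edgeR on recovered reads and without both libraries of lowest correlation, and it was 0 to 1 with 1 library left out. For the average of both cell types it became 0 with a replicate block and without both libraries, and 0 to 1 with 1 library left out. With the replicate block the adjusted p of Zm00001d034038 was 0.0618 in subsidiary cells and 0.0514 averaged. Replicate numbers did not pair the libraries: deviations of same-numbered libraries correlated at -0.06 to 0.08, and 6 of 16 libraries correlated best with their own number. Other scalings, a pseudocount of 10, no minimum and DESeq2 kept both calls. Of 42 fold changes (6 genes, 7 comparisons), 17 changed sign in at least 1 of 24 alternatives, none of them called, each at most 0.81 in size with all libraries. What depth limits was not tested, since amplified reads are not independent molecules. Standard errors, from 1 spread per gene shared by all 4 groups, were 0.41 to 1.22 on the log2 scale between 2 groups.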

Other observations

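The 6 photoreceptor genes did not move together over the 16 libraries. Among their 15 pairs the correlation of log2 levels ran from -0.45 (Zm00001d028905 with Zm00001d013402) to 0.55 (Zm00001d050850 with Zm00001d047632), and with group means removed the same pairs had -0.42 and 0.61. The higher value includes guard day replicate 4, the highest library for both genes of that pair. These values describe 16 libraries of shared depth and preparation and were not tested.

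Among tested genes with a description word, those most like the phytochrome gene Zm00001d034038 over the 16 libraries, looked up after its values were seen, were the Glucose-1-phosphate gene Zm00001d050032 (Pearson r = 0.84), the Ribosomal gene Zm00001d005061 (0.81) and the Nudix gene Zm00001d025296 (0.80). The Nudix gene had low counts, with a median of 33.2 and a lowest value of 4.53. These too were picked as the highest among 7467 genes, with no test.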
